A study of Mus musculus with 16 samples.

Results

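The genes described here are *Atf4* and 9 genes that cells switch on under amino acid or endoplasmic reticulum stress, namely *Ddit3*, *Trib3*, *Asns*, *Psat1*, *Phgdh*, *Slc7a11*, *Chac1*, *Ddit4* and *Sesn2*. The 10 genes were chosen by name. Each was read from a probe set that the platform annotation pairs with that symbol alone, and the one with the highest mean over 16 samples was to be used where there were several. All 10 genes had exactly 1 such probe set, so 10 of 35556 probe sets and 10 of 17215 genes tested are described. A further probe set that the annotation shares between *Phgdh* and *Gm6756* was not used. All 10 genes passed the signal minimum of 5, on the log2 scale of the deposited values, in at least 1 sample.

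The samples were pools of first molar germs microdissected from the lower jaw of C57Bl6 mouse embryos at E14.5, when the molar is at the cap stage. The 8 *Rsk2-/Y* pools came from males whose X-linked *Rsk2* gene (*Rps6ka3*), which codes for the kinase RSK2, was disrupted in the germline by removal of an early exon, and the 8 WT pools came from *Rsk2+/Y* male littermates. Each pool held 4 tooth germs, from more than 1 embryo by the study's methods, and 150 ng of its total RNA was labelled, so a pool averages animals and all cells of the germ. The sample names begin with ABH or AZN, with 4 pools of each genotype under each prefix. These are called series below, and what the prefixes stand for is not given in the sources used here. Whether the numbers in the AZN names tie a WT pool to an *Rsk2-/Y* pool is not stated, so pools were compared as independent, and p-values measure the spread between pools.

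ATF4 is a basic leucine zipper transcription factor whose protein is made mainly when the initiation factor eIF2 is phosphorylated, by GCN2 when amino acids are short or by PERK when proteins misfold. It then turns on genes that import and make amino acids, often through a composite site called the amino acid response element, together with genes that end the response or slow growth. RSK2 phosphorylates ATF4, and ATF4 is known for its part in osteoblast differentiation and bone formation. The arrays measured mRNA, so neither the amount of ATF4 protein nor its phosphorylation was measured.

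The promoters of the 10 genes were searched for the core of that element because it is the sequence through which ATF4 is known to act. RefSeq promoters of GRCm38.p6, each 250 bases before and 50 bases after an annotated start, held all 10 genes in 11 promoters, *Psat1* having more than 1. The letters TGATGNAA, with N any base, were present on either strand in promoters of 4 of the 10 genes and in 1304 of 32851 promoters, 3.97% of all. The cyclic AMP response element TGACGTCA, a palindrome that cannot fill the same bases as the first motif, was present in none of the 10 genes and in 1.79% of all promoters. A match describes letters in this window and is not a measured binding site. The 4 genes with a match are shown with flanking bases, 5′ to 3′ on the strand of the gene, with the match in capitals. A match on the opposite strand reads as its reverse complement.
Asns, chr6:7693210-7693262, minus strand: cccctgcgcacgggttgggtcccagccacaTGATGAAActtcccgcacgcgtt
Chac1, chr2:119351019-119351086, plus strand: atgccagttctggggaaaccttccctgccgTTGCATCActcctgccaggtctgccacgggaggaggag
Slc7a11, chr3:50443623-50443709, minus strand: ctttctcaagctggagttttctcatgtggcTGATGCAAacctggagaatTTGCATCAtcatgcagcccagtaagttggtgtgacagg
Trib3, chr2:152344028-152344057, minus strand: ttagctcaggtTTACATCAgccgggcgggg

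In *Asns* the match TGATGAAA lay 23 to 16 bases before the start, on the strand of the gene. *Chac1* had TGATGCAA on the opposite strand, 193 to 186 bases before the start. *Slc7a11* held TGATGCAA on both strands, facing each other, at 66 to 59 and at 47 to 40 bases before the start. Only 23 of all promoters searched, 0.0700%, held more than 1 match. In *Trib3* the match TGATGTAA lay on the opposite strand 15 to 22 bases after the start, inside the transcribed sequence.

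**Figure D1:**
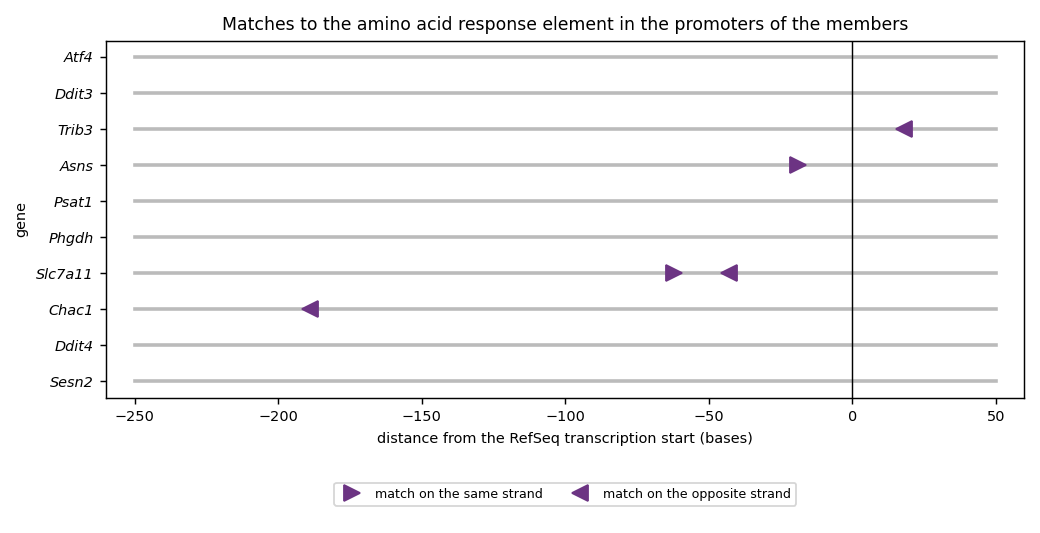
Matches to the amino acid response element core in the RefSeq promoters of the 10 genes. The x axis is the distance in bases from the annotated start, the grey lines are the windows searched and the triangles are matches, pointing right on the strand of the gene and left on the opposite strand. The match of *Asns* lies closest upstream of a start, and *Slc7a11* has a pair that face each other.

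The targeted gene and the tissue were checked first. The *Rps6ka3* signal was not lower in *Rsk2-/Y* pools, with a log2 difference of 0.10 (SE 0.12, 95% interval -0.15 to 0.34, limma adjusted p = 0.9997). Its probes are spread along the transcript and a frameshift need not remove the mRNA, so this probe set checks nothing about the deletion and genotypes rest on the labels. All 14 dental mesenchyme and all 16 dental epithelium markers tested had a mean signal above 5. So had all 22 skeletal muscle markers, whose mean ran from 7.45 to 8.29 in WT ABH pools, 7.97 to 8.91 in WT AZN, 7.39 to 9.42 in *Rsk2-/Y* ABH and 8.51 to 9.84 in *Rsk2-/Y* AZN. The epithelium mean ran from 9.99 to 10.13, 9.62 to 10.12, 9.74 to 9.88 and 9.43 to 9.83 in the same order. In such pools, fewer cells of a type and less RNA per cell cannot be told apart.

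*Atf4* and its targets were compared between genotypes to ask whether loss of a kinase that acts on ATF4 goes with a change in their mRNA. None of the 10 genes was called (limma, adjusted p under 0.1 and a fold change beyond 1.2), as none of all 18834 probe sets was (0.0%). At an unadjusted p under 0.05 limma gave 0 of the 10 and 4.05% of all. The equal-variance test that the study's methods name also called 0 of the 10 and 0 of all, of which 789 had an unadjusted p under 0.05. All 10 had an adjusted p of 0.9997 in limma. The log2 difference was above 0 for 5 and below 0 for 5, with a median of -0.01 against -0.02 over all genes. For 7 genes the 95% interval lay wholly within a fold change of 1.2 either way. The exceptions were *Asns*, *Slc7a11* and *Ddit4*.

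*Atf4* had the smallest genotype difference of the 10. The 4 WT ABH pools measured 7.80, 7.78, 7.78 and 7.80 and the 4 *Rsk2-/Y* ABH pools 7.66, 7.91, 7.71 and 7.74. The 4 WT AZN pools measured 7.90, 7.92, 7.76 and 7.92 and the 4 *Rsk2-/Y* AZN pools 7.95, 7.82, 7.98 and 7.96. The ranges of WT and *Rsk2-/Y* pools overlapped in each series. In ABH, ABH_15A exceeded all WT pools and the other *Rsk2-/Y* pools lay below all of them. In AZN, AZN_MolairesMutant1 lay within the WT range and the other *Rsk2-/Y* pools lay above it. The log2 difference, *Rsk2-/Y* minus WT, was 0.01 (SE 0.05, 95% interval -0.10 to 0.13, n = 8 and 8), with an exact two-sided permutation p of 0.831. That interval ends at 1.07-fold lower and 1.09-fold higher. *Atf4* also varied little between pools of 1 genotype and series, with a pooled SD of 0.08, higher than in 10.98% of all genes tested.

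*Ddit3* codes for CHOP, the factor that ATF4 induces and that promotes cell death under lasting stress. Its signals were 7.22, 7.35, 7.41 and 7.10 in WT ABH and 7.34, 7.27, 7.22 and 7.25 in *Rsk2-/Y* ABH pools. They were 7.49, 7.48, 7.26 and 7.24 in WT AZN and 7.36, 7.35, 7.60 and 7.62 in *Rsk2-/Y* AZN pools. AZN_MolairesMutant3 and AZN_MolairesMutant4 stood above every WT pool, and the others overlapped with WT. The difference was 0.06 (SE 0.07, exact permutation p = 0.453). *Trib3*, a pseudokinase that restrains ATF4 and CHOP, ran from 6.38 to 6.66 in WT (median 6.54) and from 6.28 to 6.60 in *Rsk2-/Y* pools (median 6.47). Its difference was -0.08 (SE 0.05, exact permutation p = 0.101), with 7 of 8 *Rsk2-/Y* pools below the WT mean. That was the smallest p of the 10 in this test, whereas in limma *Ddit4* had a smaller unadjusted p (0.0785 against 0.131).

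The enzymes that make asparagine and serine showed small differences between genotypes. *Asns*, asparagine synthetase, measured 10.23, 10.17, 10.34 and 10.13 in WT ABH and 9.96, 10.24, 10.10 and 10.12 in *Rsk2-/Y* ABH pools. It measured 9.85, 9.74, 9.98 and 10.03 in WT AZN and 10.001, 9.71, 9.61 and 9.87 in *Rsk2-/Y* AZN pools. The genotypes overlapped in each series, and the AZN pools lay mostly below the ABH pools. The genotype difference was -0.11 (SE 0.10, exact permutation p = 0.308), and it was -0.11 in ABH and -0.11 in AZN. *Phgdh*, the first enzyme of serine synthesis, ran from 8.56 to 9.25 in WT and from 8.56 to 9.11 in *Rsk2-/Y* pools, with a difference of -0.03 (SE 0.09). *Psat1*, which carries out the next step, ran from 9.99 to 10.22 in WT and from 9.89 to 10.14 in *Rsk2-/Y* pools, with a difference of -0.06 (SE 0.05).

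*Slc7a11*, the cystine and glutamate exchanger xCT that feeds glutathione synthesis, varied most. Its signals were 6.94, 6.57, 6.50 and 6.28 in WT ABH and 6.50, 6.93, 6.996 and 7.04 in *Rsk2-/Y* ABH pools. They were 6.13, 6.17, 6.08 and 6.74 in WT AZN and 7.27, 6.18, 5.94 and 6.38 in *Rsk2-/Y* AZN pools. The highest and the lowest of all 16 values were both *Rsk2-/Y* AZN pools, AZN_MolairesMutant and AZN_MolairesMutant3. The genotype difference of 0.23 was the largest in size of the 10 (SE 0.18, 95% interval -0.15 to 0.61, exact permutation p = 0.261). Its pooled SD of 0.38 was higher than in 98.1% of all genes tested, and its interval reached 1.52-fold higher. *Chac1*, which breaks down glutathione, ran from 6.79 to 7.09 in WT and from 6.84 to 7.30 in *Rsk2-/Y* pools, with a difference of 0.07 (SE 0.06, exact permutation p = 0.265).

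*Ddit4* and *Sesn2* code for REDD1 and Sestrin2, which hold back the growth kinase complex mTORC1. *Ddit4* measured 8.94, 8.97, 9.02 and 9.12 in WT ABH and 8.71, 8.93, 8.87 and 8.82 in *Rsk2-/Y* ABH pools. It measured 9.45, 9.05, 9.13 and 9.54 in WT AZN and 9.16, 8.97, 9.13 and 9.21 in *Rsk2-/Y* AZN pools. Within ABH all *Rsk2-/Y* values were below all WT values, by a narrow gap (8.93 against 8.94), and within AZN the genotypes overlapped. The share of all genes that separate in this way was not counted, so nothing is read from it. The difference was -0.18 (SE 0.09, 95% interval -0.37 to 0.02), and it was -0.18 in each series. The exact permutation p was 0.106, and 0.0261 over the 4900 arrangements that keep the series, as 1 of 10 genes compared this way. In limma with the series as a block the adjusted p over all probe sets was 0.610. With the epithelium and muscle means added to that fit the difference was -0.06 (SE 0.08). *Sesn2* ran from 7.51 to 8.02 in WT and from 7.66 to 8.07 in *Rsk2-/Y* pools, with a difference of 0.02 (SE 0.07).

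**Figure D2:**
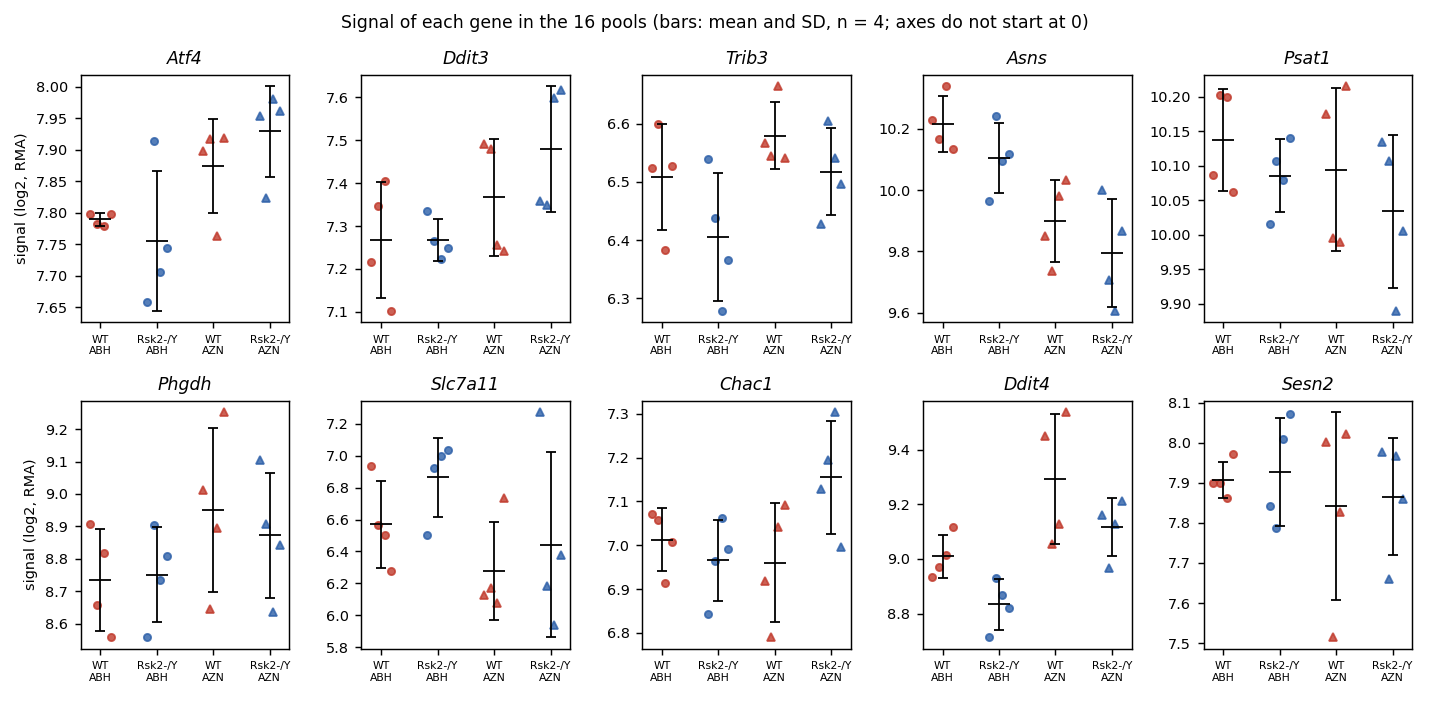
Log2 RMA signal of each gene (y axes, which do not start at 0) in the 4 pools of each genotype and series, coloured red for WT and blue for *Rsk2-/Y*, with ABH pools as circles and AZN pools as triangles. Black lines are the mean and SD (n = 4). The genotypes overlap within each series except for *Ddit4* in ABH, *Asns* is lower and *Ddit4* higher in AZN, and *Slc7a11* spans from 5.94 to 7.27.

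The genotype difference was then compared between series. Its direction differed between ABH and AZN for 3 genes, *Atf4* (-0.03 and 0.06), *Phgdh* (0.02 and -0.08) and *Chac1* (-0.05 and 0.20). *Chac1* measured 7.07, 7.06, 6.91 and 7.01 in WT ABH and 6.84, 6.96, 7.06 and 6.99 in *Rsk2-/Y* ABH pools. It measured 6.92, 6.79, 7.04 and 7.09 in WT AZN and 7.13, 7.19, 7.30 and 6.995 in *Rsk2-/Y* AZN pools. In AZN, 3 of 4 *Rsk2-/Y* pools exceeded all WT pools, and in ABH none did. The interaction of *Chac1* was 0.24 (SE 0.11, adjusted p = 0.759 in limma). *Chac1* was the 1 gene of the 10 with an unadjusted p under 0.05, a level that 6.31% of all probe sets reached. No interaction was called for the 10 genes or for any probe set (0.0%).

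The series were compared with genotype kept in the fit (AZN minus ABH, limma). *Asns* and *Slc7a11* were lower and *Ddit4* was higher in AZN at an adjusted p under 0.1 and a fold change beyond 1.2. Of all probe sets, 5.95% were called higher and 10.6% lower, so calls were common in this comparison. The 10 genes had 6 differences above 0 and 4 below, with a median of 0.08 against 0.02 over all genes.

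*Asns* kept its call when any 1 pool was left out. ABH pools ran from 9.96 to 10.34 and AZN pools from 9.61 to 10.03, overlapping through ABH_14A, the lowest ABH pool. The difference was -0.31 (SE 0.06, adjusted p = 0.000859), with -0.32 in WT and -0.31 in *Rsk2-/Y* pools. *Ddit4* ran from 8.71 to 9.12 in ABH and from 8.97 to 9.54 in AZN pools. Its difference was 0.28 (SE 0.07, adjusted p = 0.00297), with 0.28 in each genotype, where WT pools alone gave an adjusted p of 0.102. The fold change of *Ddit4* was no longer beyond 1.2 without AZN_MolairesWT1 (0.26) or without AZN_MolairesWT (0.24), though its adjusted p stayed at 0.00687 and 0.00534. *Slc7a11* ran from 6.28 to 7.04 in ABH and from 5.94 to 7.27 in AZN pools. Its difference of -0.36 (SE 0.16, adjusted p = 0.0892) lost its call when any pool other than ABH_25A, ABH_14A, AZN_MolairesWT or AZN_MolairesMutant was left out, with values from -0.48 to -0.28 over all 16. Without both AZN_MolairesWT and AZN_MolairesMutant, the AZN pools whose names carry no number, it was -0.57 (SE 0.11, adjusted p = 0.000735). These were also the AZN pools with the highest *Slc7a11*, and their arrays had the lowest medians of all 16 (6.74 and 6.75 against 6.80 to 6.94). In the same fit *Ddit4* was 0.23 (adjusted p = 0.00990), under the fold threshold, and *Phgdh* 0.08.

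*Atf4* and *Ddit3*, the transcription factors, were higher in AZN by less than the fold threshold. *Atf4* ran from 7.66 to 7.91 in ABH and from 7.76 to 7.98 in AZN pools, a difference of 0.13 (SE 0.04, adjusted p = 0.0293). *Ddit3* ran from 7.10 to 7.41 in ABH and from 7.24 to 7.62 in AZN pools, a difference of 0.16 (SE 0.06, adjusted p = 0.0515). At any fold change 21.7% of all probe sets were higher and 23.1% lower at this adjusted p. The other differences were 0.17 for *Phgdh*, 0.09 for *Trib3*, 0.07 for *Chac1*, -0.05 for *Psat1* and -0.06 for *Sesn2*, with adjusted p from 0.128 to 0.501.

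**Figure D3:**
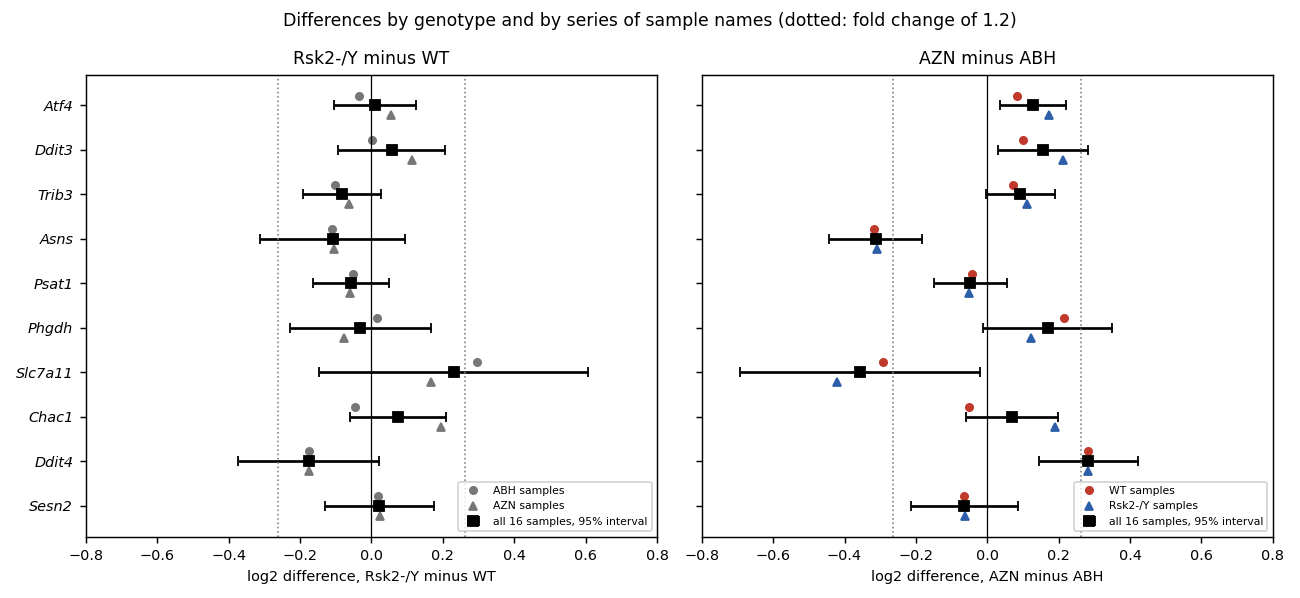
Log2 differences of the 10 genes between genotypes (left) and between series (right). Squares are limma estimates over 16 pools with 95% intervals, small symbols are the differences within each series (left) or genotype (right), and dotted lines mark a fold change of 1.2. Every genotype interval spans 0, while *Asns*, *Slc7a11* and *Ddit4* lie past the dotted lines between series.

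Muscle markers moved with the series, with all 22 above 0 and 10 called higher in AZN (median 0.62), and 21 of 22 were above 0 in *Rsk2-/Y* (median 0.54, none called). Dental epithelium markers were below 0 in *Rsk2-/Y* for all 16 (median -0.21, none called). With both means as covariates, the series difference of *Asns* was -0.22 (adjusted p = 0.0124), under the fold threshold, and that of *Slc7a11* was -0.18 (adjusted p = 0.489). In the same fit *Ddit4* was 0.35 (adjusted p = 0.00233), *Atf4* 0.12 (adjusted p = 0.0884) and *Phgdh* 0.32 (adjusted p = 0.00719), which was then called. How far tissue make-up takes part in the series differences was otherwise not tested.

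The 10 genes were also compared across pools after the mean of each genotype and series was removed, so that only the pool itself remained (n = 16). *Atf4* was related to none of the other 9 after adjustment. Its largest correlation was with *Ddit4* (Pearson r 0.53, permutation p = 0.0456, adjusted over 9 relations 0.410, Spearman rho 0.56, permutation p = 0.0375, adjusted 0.338). It was 0.44 without ABH_15A and AZN_MolairesWT3, the pools farthest from the *Atf4* median. The other 8 lay between -0.31 and 0.31 or closer to 0. The 5 genes whose pattern over these pools was most like that of *Atf4* were *Ptgr2* (r 0.89), *Senp5* (0.87), *Tmem243* (0.86), *Ndufa1* (0.86) and *Rnf34* (0.86). None is among the 10 genes, and they were chosen by r, so no p is given.

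Of the 6 pairs among *Asns*, *Psat1*, *Phgdh* and *Slc7a11*, which make amino acids or take up cystine, 2 passed 0.05 by Pearson's r after adjustment and none did by Spearman's rho. *Asns* and *Phgdh* had a Pearson r of 0.82 (permutation p = 0.00091, adjusted over 45 pairs 0.0344) and a Spearman rho of 0.79 (permutation p = 0.00214, adjusted 0.0682). *Phgdh* and *Slc7a11* had an r of 0.78 (permutation p = 0.00153, adjusted 0.0344) and a rho of 0.76 (permutation p = 0.00303, adjusted 0.0682). The r of *Asns* with *Phgdh* was 0.75 without AZN_MolairesMutant and AZN_MolairesMutant3, 0.85 in ABH and 0.81 in AZN. The r of *Phgdh* with *Slc7a11* was 0.82 without AZN_MolairesWT2 and AZN_MolairesWT, 0.83 in ABH and 0.76 in AZN. These 45 pairs were examined after values had been seen. The share of all gene pairs with such an r was not counted, so shared regulation is not read from them. Genes outside the 10, chosen by r, reached 0.97 with *Asns* (*E2f8*) and 0.95 with *Slc7a11* (*Lyar*). *Psat1* with *Phgdh* (r 0.76, adjusted permutation p = 0.0844) and *Asns* with *Slc7a11* (r 0.73, adjusted permutation p = 0.0902) did not pass 0.05, nor did *Asns* with *Psat1* (r 0.56, adjusted permutation p = 0.347) and *Psat1* with *Slc7a11* (r 0.59, adjusted permutation p = 0.319). Without the unnumbered AZN pools, r was 0.74 for *Asns* with *Phgdh* and 0.65 for *Phgdh* with *Slc7a11*.

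None of 30 relations of the 10 genes with tissue marker means passed 0.05 after adjustment, and the nearest are given. *Asns* and the muscle mean had an r of -0.72 and a rho of -0.65 (permutation p = 0.00263 and 0.0140, adjusted over 30 relations 0.0545 and 0.140), and r was -0.59 without ABH_14A and AZN_MolairesMutant3. *Phgdh* had -0.67 and *Psat1* -0.60 with the muscle mean (adjusted permutation p = 0.0545 for each). *Slc7a11* and the dental mesenchyme mean had an r of 0.79 and a rho of 0.77 (adjusted permutation p = 0.0545 and 0.0717), and r was 0.61 without AZN_MolairesMutant3 and AZN_MolairesMutant. *Ddit3* went the other way with the mesenchyme mean, with an r of -0.71 and a rho of -0.59 (adjusted permutation p = 0.0545 and 0.207). Without the same pools its r was -0.67. The part of tissue make-up in the variation between pools was not tested.

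**Figure D4:**
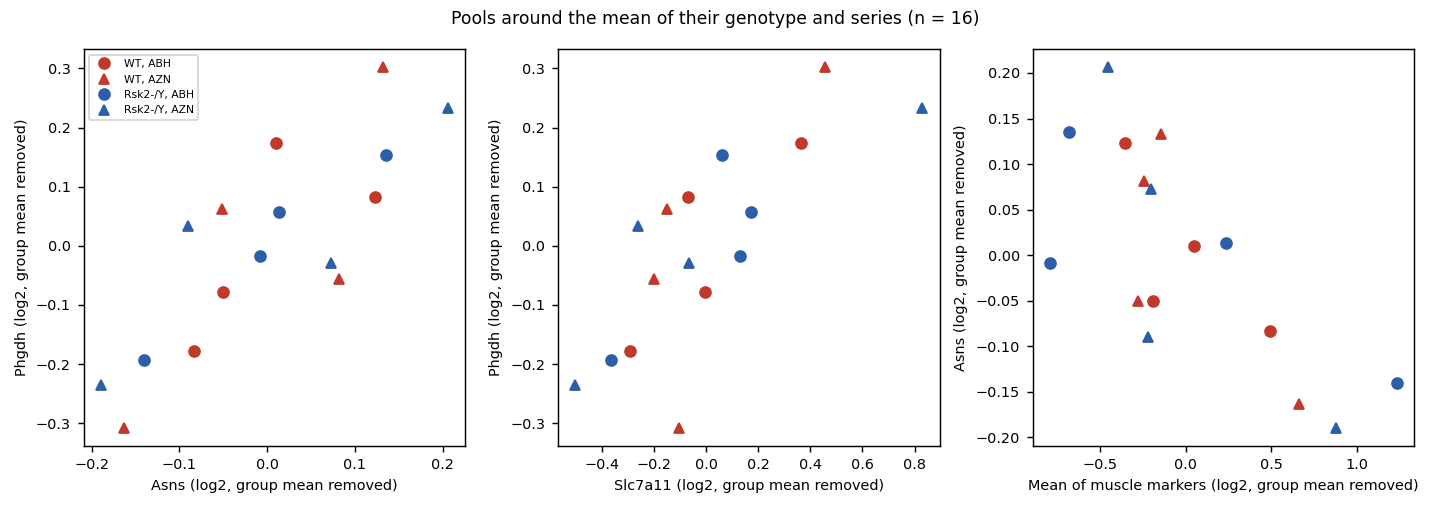
Each point is a pool, at its log2 signal minus the mean of its genotype and series (n = 16), for *Phgdh* against *Asns*, *Phgdh* against *Slc7a11*, and *Asns* against the mean of 22 skeletal muscle markers. Red is WT, blue *Rsk2-/Y*, circles ABH and triangles AZN. Points rise in the first panels (r 0.82 and 0.78), and *Asns* falls as the muscle mean rises (r -0.72).

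The pools that held the highest or lowest value of a gene are described next. How often each pool is an extreme over all genes was not counted, so nothing is read from these counts. AZN_MolairesMutant3 had the highest *Atf4* (7.98) and *Chac1* (7.30) and the lowest *Asns* (9.61), *Psat1* (9.89) and *Slc7a11* (5.94). Its *Atf4* was close to that of AZN_MolairesMutant4 (7.96) and AZN_MolairesMutant (7.95). Over all 16 pools with group means removed, *Atf4* had an r of 0.25 with *Asns*, 0.10 with *Psat1* and 0.27 with *Slc7a11*. ABH_14A had the lowest *Atf4* (7.66), *Ddit4* (8.71) and *Phgdh* (8.56). AZN_MolairesWT had the highest *Psat1* (10.22), *Phgdh* (9.25) and *Ddit4* (9.54). Of the 16 pools, 5 held no extreme of any of the 10, namely ABH_11A, ABH_12A and AZN_MolairesWT1 among WT and ABH_15A and AZN_MolairesMutant1 among *Rsk2-/Y* pools. AZN_MolairesMutant3 and ABH_14A were also the pools with the highest muscle means, 9.84 and 9.42.

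**Figure D5:**
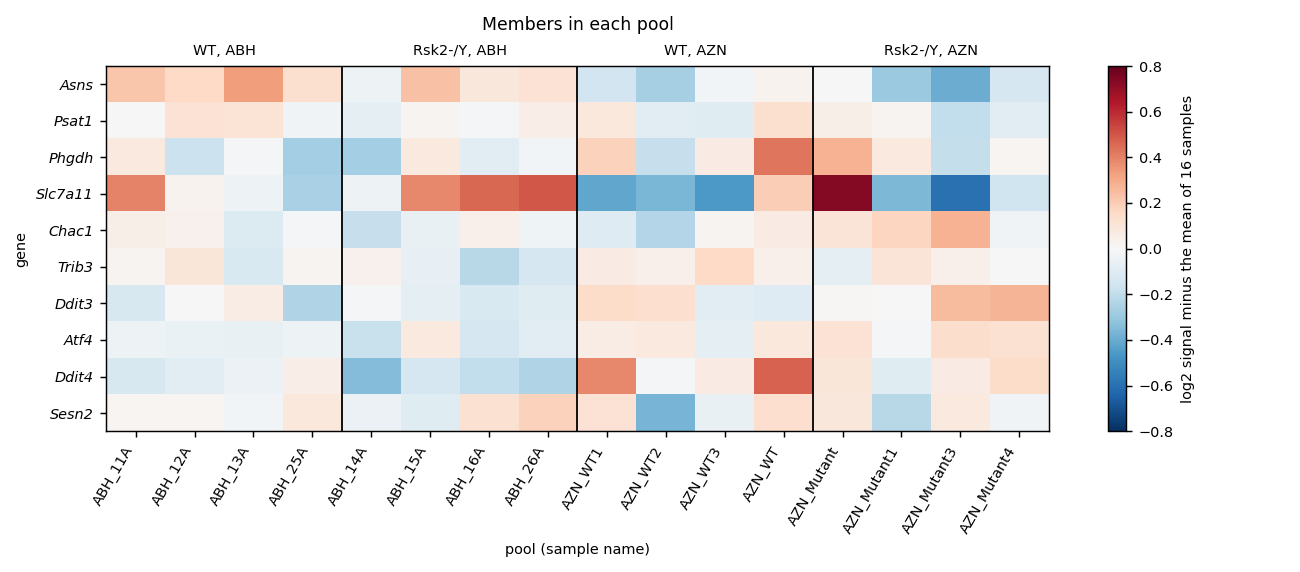
Log2 signal minus the mean of 16 pools (colour) for each gene (rows) in each pool (columns, named as in the labels without "Molaires"), grouped by genotype and series. AZN_Mutant3 is high in *Atf4* and *Chac1* and low in *Asns*, *Psat1* and *Slc7a11*, and AZN_WT is high in *Phgdh* and *Ddit4*.

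Genes of 26 lists, 9 of them of the ATF4 pathway, were also compared between genotypes. None was called in any list, as none of all 18834 probe sets was (0.0%). Upstream of ATF4, 8 of 9 listed eIF2 kinases and phosphatase genes were tested, with 5 above 0 and a median of 0.01, and *Eif2ak2*, the kinase PKR, had the largest difference (0.10, SE 0.10). Among 4 RSK and CREB kinases tested, 2 were above 0. Of 11 partners and related factors, 4 were above 0 (median -0.03). Amino acid transporters had 6 of 10 above 0 (median 0.01), serine, glycine, one-carbon and proline synthesis 5 of 11 (median -0.0034), with *Shmt2* at -0.15 (SE 0.10), and cytosolic tRNA synthetases 9 of 13 (median 0.02), with *Tars* at 0.15 (SE 0.07). Other ATF4 targets had 9 of 20 above 0 (median -0.03), and targets of ATF6 and XBP1, the other arms of the unfolded protein response, 7 of 16 (median -0.02). The 4 tested of 8 osteoblast genes linked to ATF4 were all above 0 (median 0.19), with *Ibsp*, bone sialoprotein, at 0.51 (SE 0.35) and *Sp7*, which codes for osterix, at 0.27 (SE 0.13). Osteoblast markers, which share both genes, were above 0 for all 6 tested.

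Between series the calls among pathway genes were at about the share of all probe sets. Over the 9 lists from the eIF2 kinases to the osteoblast genes, 7 of 97 entries tested, some genes being in more than 1 list, were called higher (7.22% against 5.95% of all) and 13 lower (13.4% against 10.6% of all), so the genes below are given as values of single genes. All 10 amino acid transporters were below 0 in AZN (median -0.13 against 0.02 over all genes). The share of all genes below 0 was not counted, so nothing is read from this shared direction. Of these transporters 2 were called lower, *Slc7a5*, the large neutral amino acid transporter LAT1 (-0.40, adjusted p = 0.00255), and *Slc43a1* (-0.27, adjusted p = 0.0210). None of the 8 eIF2 kinases and phosphatase genes was called, although *Eif2ak3*, which codes for PERK, was at -0.20 (adjusted p = 0.00389). Among the ATF4 partners and related factors, *Nupr1* (0.49) and *Creb3l1* (0.33) were called higher. *Cebpg*, which forms a dimer with ATF4 (-0.33), and *Nfe2l2*, which codes for NRF2 (-0.31), were called lower. Both *Rps6ka3* (-0.41) and *Rps6ka5* (-0.35) were called lower among 4 kinases. *Mthfd2*, a mitochondrial one-carbon enzyme, was called higher (0.36, adjusted p = 9.2e-05), whereas *Aldh18a1*, an enzyme of proline synthesis, was called lower (-0.30), and the 11 synthesis genes had a median of -0.10.

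Calls in the remaining pathway lists are given beside the same 5.95% of all probe sets called higher and 10.6% called lower. No list was tested. *Iars*, isoleucyl-tRNA synthetase, was the 1 called of 13 tRNA synthetases (-0.53). Other ATF4 targets had 1 called higher, *Mknk2* (0.33), and 5 lower of 20, led by *Klhl24* (-0.71) and *Nars2* (-0.48), with a median of -0.01. Of 16 ATF6 and XBP1 targets *Creld2* was called higher (0.36). Osteoblast genes linked to ATF4 had *Ibsp* (1.02) and *Sp7* (0.30) called higher of 4.

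Lists for other inputs to the 10 genes were counted in the same way, and over these 6 lists 5.97% of the entries tested were called higher and 14.9% lower, against 5.95% and 10.6% of all probe sets. Between series, hypoxia targets, a class to which *Ddit4* is also known to belong, had 2 called higher of 15 (*Higd1a* 0.27 and *Ankrd37* 0.27). Glucocorticoid targets had 2 called lower of 8 (*Errfi1* -0.37 and *Dusp1* -0.31), p53 targets 1 higher and 2 lower of 12, and mTORC1 regulators 1 higher (*Sesn1* 0.34) and 1 lower (*Deptor* -0.36) of 10. *Slc7a11* was the 1 called of 9 NRF2 targets. Genes that respond to dissection had 4 called lower of 13, among them *Egr1* (-0.40) and *Hspb1* (-0.40). Between genotypes the medians of these lists ran from -0.09 to 0.01. Single genes went further, with *Egr1* at 0.61 (SE 0.19, limma adjusted p = 0.911) and *Hspb1* at -0.31 (SE 0.12), neither of them called.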

How the data were processed

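Total RNA of 16 pools was hybridised to Affymetrix Mouse Gene arrays, which carry probes along each transcript. The authors deposited a log2 signal for each probe set and pool. Per the submitters' processing notes, RMA in Affymetrix Expression Console 1.3.1.187 made them, and they were not normalized again. RMA had corrected background, equalised arrays and summarised probes. Values ran from 2.57 to 13.97. Precision is limited by the number of arrays, which carry no read depth.

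Of 35556 probe sets, 21789 pair with 1 symbol, 1621 with several and 12146 with none. Single-symbol sets above a signal of 5 in at least 1 sample, 18834 in all, were tested with limma 3.58.1 in R 4.3.3 (two-sided, Benjamini-Hochberg). Called means an adjusted p under 0.1 and a fold change beyond 1.2, as the study's methods set them. Genotypes were compared without a covariate, and series with a genotype term. Single values were tested over all 12870 arrangements of 8 against 8 pools, where the smallest possible p is 0.0001554. Correlations used 100000 permutations within genotype and series. Python 3.11.15 was used, and the limma script was tested on simulated data.

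The 10 genes and the lists were chosen with earlier results of these data known, so no list was tested and no p was adjusted over a list. All 10 genes are named. Genes named from a list are among its called genes with the largest differences, up to 4, otherwise among its 2 largest. Not all of these are named. The 5 genes most like *Atf4* are named as well. The correlations among all 10 genes and with tissue marker means were added after values had been seen. The sources differ on the RNA amount labelled, and the labels' amount is given. Alternatives were the series as a block, each series or genotype alone, each pool left out, the unnumbered AZN pools left out (series), tissue means as covariates, array weights, renormalization, no signal minimum and the methods' t-test. Beside these, leaving out pools with the highest muscle means from the series comparison, leaving out the unnumbered AZN pools from the genotype comparison and from the correlations, and including probe sets with several symbols were chosen after seeing the data.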

Additional observations from a re-analysis of the deposited data

Results flagged for a closer look

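Among 60 groups of 4 or 8 values of the 10 genes, 4 held a sample whose gap to the next value was large for the range of its group, and chance alone gives about 1 in 20 such groups. The groups overlap, since each pool belongs to several. *Atf4* was low in AZN_MolairesWT3, at 7.76 against 7.90 or more in the other WT AZN pools, and in AZN_MolairesMutant1, at 7.82 against 7.95 or more in the other *Rsk2-/Y* AZN pools. *Slc7a11* was high in AZN_MolairesWT, at 6.74 against 6.17 or less in the other WT AZN pools. *Sesn2* was low in AZN_MolairesWT2, at 7.51 against 7.83 or more in the other 7 WT pools.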

How the results depend on the processing

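No gene of the 10 was called between genotypes under any alternative (0 each time), and no interaction was called. Between series 3 were called, 1 to 3 when single pools were left out (1 without AZN_MolairesWT1), 1 in WT pools alone and 2 with tissue means as covariates. The genotype difference turned for *Atf4* (-0.034 in ABH alone and -0.025 with the series as a block and tissue covariates), *Chac1* (-0.048 in ABH alone) and *Phgdh* (0.016 in ABH alone, 0.040 without ABH_14A and AZN_MolairesMutant3, 0.15 with the block and tissue covariates, 0.00264 with array weights). It also turned for *Ddit3* (-0.031) and *Psat1* (0.036) with the block and tissue covariates. With single pools left out, *Atf4* ran from -0.0089 to 0.037, *Phgdh* from -0.073 to 0.027 and *Sesn2* from -0.030 to 0.055. The series difference of *Chac1* was -0.052 in WT pools alone, and that of *Psat1* was 0.018 with tissue covariates. The causes were not tested. With the number in the AZN names as a replicate block, pairing AZN_MolairesWT1 with AZN_MolairesMutant1 and AZN_MolairesWT3 with AZN_MolairesMutant3, 0 of the 10 genes were called, so it changed no call. Without AZN_MolairesWT and AZN_MolairesMutant, 2 were called between series and 0 between genotypes, and the series difference of *Slc7a11* was -0.57. Of 646 alternative values, 602 were rated the same. For the difference of a gene this meant the same direction and the same side of the threshold. For a count of called genes it meant an equal or similar count, so 2 against 3 was rated the same. The spread between pools limits what could be seen, with SDs from 0.08 for *Atf4* to 0.38 for *Slc7a11*.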

Other observations

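The genes most like some of the 10 across pools were also listed, after their values had been seen and over the same 16 pools with group means removed. They were chosen by r, so no p is given. For *Asns* the highest were *E2f8* (r 0.97), a cell cycle transcription factor, *Tufm* (0.95), the mitochondrial elongation factor Tu, and *Shmt2* (0.94), the mitochondrial enzyme that turns serine into glycine. For *Slc7a11* they were *Lyar* (0.95), *Pdp1* (0.94) and *Fut8* (0.94). For *Ddit4* they were *Qars* (0.91), glutaminyl-tRNA synthetase, *Wac* (0.91) and *Gpt2* (0.90), the mitochondrial alanine transaminase.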
